A study of Mus musculus with 12 samples.

Results

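The light-strand transcripts of the mouse mitochondrial genome were described here through the cytosines that the RNA BS-seq libraries of neural stem cells (NSCs) listed on the minus strand of chromosome MT. All positions called without a variant base on that strand were taken, whatever their level. Of 6384216 different cytosines listed in the series, 1013 lay on the mitochondrial minus strand. They were split by position into the 31 cytosines of mt-Nd6 (chrM:13552-14070, mm10, minus strand) and the 982 cytosines of the antisense remainder, which lie outside mt-Nd6.

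The NSCs came from the subventricular zone of adult male wild-type C57BL/6 mice and were cultured for 4 days with folic acid at 1.5 μM (low folate, LF), 10 μM (mid folate, MF) or 80 μM (high folate, HF). Poly(A)-selected RNA was taken from whole cells (total mRNA) and from pooled polysome fractions (polysome mRNA). There were 2 libraries for each of the 6 conditions, 12 in all. The study calls each pair biological replicates, and the labels do not say whether separate cultures or animals were used, so the p-values measure the spread between these libraries.

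Animal mitochondrial DNA is transcribed from both strands into long precursors, which are cut mainly at tRNAs. Most of the protein genes, both rRNAs and most tRNAs are read from 1 strand. The other strand carries mt-Nd6, which encodes a membrane subunit of respiratory complex I, and a few tRNAs. The rest of that strand yields RNA that is antisense to the genes opposite. In RNA BS-seq, unmethylated cytosine is read as T and 5-methylcytosine (m5C) as C, and the methylation level of a position is the share of its C and T reads that are C. At levels near the conversion background, C reads can also be unconverted cytosines.

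Several libraries stood apart before any comparison. The read counts in both total libraries labelled HF differ from those the study lists for its HF sites, so these are called the libraries labelled HF throughout. Polysome HF replicate 2 listed 38353 cytosines in the whole genome with a level above 90%, while the other 11 libraries listed between 1102 and 3465. Coverage summed over the listed cytosines, in which a read counts at each cytosine it covers, was between 1186213013 and 2857966129 per library. The NSC markers Nes, Sox2, Vim, Fabp7, Slc1a3 and Msi1 were listed in each library. The neuronal, oligodendrocyte, microglial and endothelial markers Rbfox3, Mog, Aif1, Cx3cr1 and Cdh5 had no listed cytosine in any library. Syt1, Snap25, Mbp, Ptprc and Pecam1, also markers of these types, had at most 16 in a library.

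The sequences below show the minus-strand cytosines on which the results turn. The capital letter is the cytosine measured, with 10 bases on each side, written 5′ to 3′ on the minus strand as DNA. Where a line names the libraries with the highest level, it refers to entries with a coverage of at least 20. All 3584 mitochondrial positions listed matched a C of the same strand in the GRCm38.p6 sequence.

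chrM:13552-13572, mt-Nd6, near the 3′ end of the gene: atcgagattaCtcgagattaa
chrM:13588-13608, mt-Nd6, near the 3′ end of the gene: gctgggtgatCtttgtttgcg
chrM:13837-13857, mt-Nd6, inside the gene: gctatagctaCtgaggaatat
chrM:12861-12881, opposite mt-Nd5: gagggcgaggCttccgattac
chrM:12062-12082, opposite mt-Nd5, highest in the libraries labelled HF: atgtttgggtCtgagtgtata
chrM:12008-12028, opposite mt-Nd5, highest in the libraries labelled HF: acaaaaagggCtacagatgta
chrM:11928-11948, opposite mt-Nd5, highest in the libraries labelled HF: gactcagtgcCaggttgtaat
chrM:11871-11891, opposite mt-Nd5, highest in the libraries labelled HF: gggtaagaggCtaataatgaa
chrM:10817-10837, opposite mt-Nd4, highest in polysome HF replicate 2: ggagcttcaaCatgggctttt
chrM:6182-6202, opposite mt-Co1, highest in polysome HF replicate 2: atgtggtgggCtcatacaata
chrM:3326-3346, opposite mt-Nd1, highest in the libraries labelled HF: tcgaagggggCccggtttgtt

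The minus strand of the mitochondrial genome holds 2013 cytosines, which make up 12.4% of its 16299 bases, and mt-Nd6 is poorer in cytosine, at 5.97% of its 519 bases. All 31 cytosines of mt-Nd6 were listed at a coverage of at least 20 in at least 1 library. Of the 1982 cytosines outside mt-Nd6, 982 were listed and 904 reached that coverage, so 78 of the 1013 had a coverage between 10 and 19 wherever they were listed. Entries with a coverage just above 20 had levels between 4.17% and 25%, and those just below it had levels between 5.26% and 66.7%.

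The listed cytosines were unevenly spread along the strand. All 180 cytosines opposite mt-Nd5 were listed, as were 110 of 111 opposite mt-Nd1, 77 of 83 opposite mt-Nd2, 129 of 139 opposite mt-Cytb and 210 of 249 opposite mt-Co1. Opposite mt-Co2, mt-Atp6 and mt-Co3, at most 2 cytosines of each gene were listed, and none opposite mt-Atp8. The plus strand was also thinly listed there, with between 0 and 53 cytosines in each 500-base window from 7001 to 10500. Opposite the rRNA genes, 10 of 154 cytosines were listed for mt-Rnr1 and 41 of 256 for mt-Rnr2.

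The minus-strand tRNA genes contributed little. Of their 75 cytosines, 14 were listed, with 7 of 8 in mt-Te, 5 of 10 in mt-Tp and 2 of 8 in mt-Tq. The tRNAs for alanine, asparagine, cysteine, tyrosine and serine (mt-Ta, mt-Tn, mt-Tc, mt-Ty and mt-Ts1) had none. The highest median coverage of a tRNA gene in a library was 166, in mt-Te.

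A position without any C read is absent from a list, so the libraries were compared over cytosines listed at a coverage of at least 20 in all 12 of them. There were 112, of which 19 lay in mt-Nd6, 77 opposite mt-Nd5 and 16 opposite mt-Nd4. Each of these had at least 1 C read in each library, which keeps low levels out more often where coverage is low. Another 153 cytosines were listed at that coverage in 1 library alone.

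Deep minus-strand coverage reached from mt-Nd6 into the RNA opposite mt-Nd5 and part of mt-Nd4. In the 4 total LF and MF libraries, the median coverage of the 28 common cytosines in the first 500 bases beyond the gene was between 16685 and 19000.5. It was between 8091 and 9787 in the next 500 bases, and between 2606 and 3150 in the 500 after that. Over all listed cytosines of these libraries, the 100-base bin centred 2550 bases beyond the gene had a median coverage between 3913 and 4678, and the next bin, centred at 2650, between 304.5 and 407. Listing was incomplete on both strands near this fall. From 10501 to 11000, 37 of 58 minus-strand and 51 of 120 plus-strand cytosines were listed in any library. From 10001 to 10500 it was 24 of 42 and 0 of 138. Whether the fall marks an end of the RNA was not tested. In the 6 polysome libraries the common cytosines of the first 500 bases had between 3025.5 and 5134.5. The libraries labelled HF had another shape. Their coverage was between 3455.5 and 3700.5 in the first 500 bases and between 7998 and 11037 in the next.

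**Figure D1:**
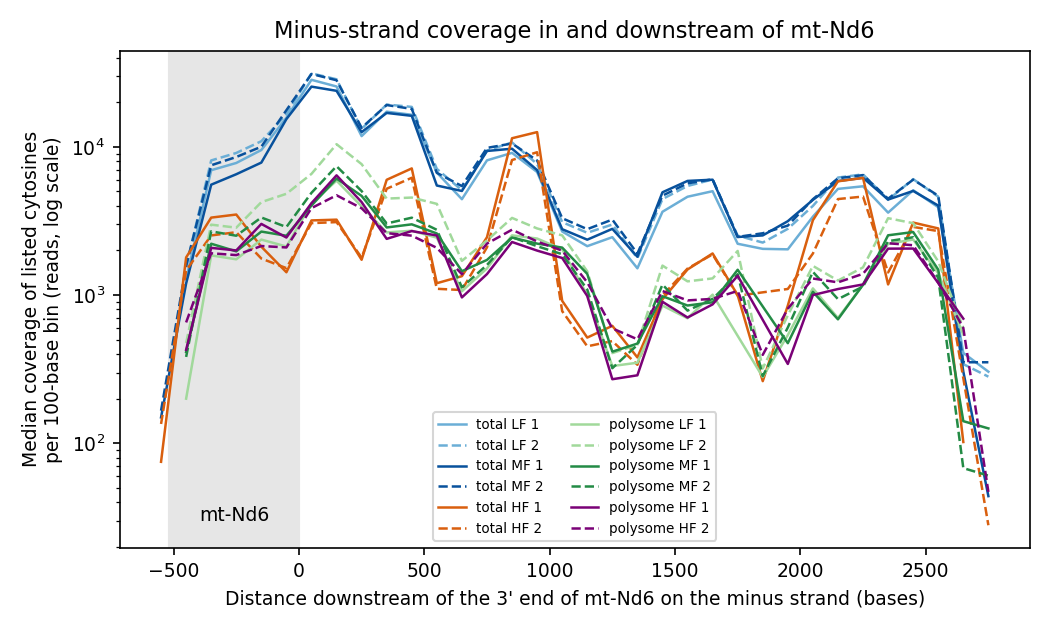
Median coverage of the minus-strand cytosines listed in each 100-base bin (log scale) against the distance downstream of the 3′ end of mt-Nd6 in bases, with 1 line per library and the gene shaded. The total LF and MF libraries lie above the polysome libraries over most of the stretch, and the libraries labelled HF reach them between 500 and 1000 bases.

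Coverage also differed within mt-Nd6. In the total LF and MF libraries, the 8 common cytosines in the last 100 bases of the gene had between 1.75 and 2.31 times the median coverage of the 11 others. In the polysome libraries this ratio was between 1.11 and 1.62. The libraries labelled HF had ratios of 0.44 and 0.616, so the 3′ end was covered less than the rest of the gene.

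Over mt-Nd5, which encodes a large membrane subunit of complex I, the minus strand was covered far more deeply than the coding plus strand. In the total LF and MF libraries, the median coverage of listed cytosines over mt-Nd5 was between 4729 and 5830.5 on the minus strand and between 43 and 59.5 on the plus strand. Over mt-Nd4, another subunit of complex I, it was between 3973 and 5213 on the minus strand and between 81.5 and 106 on the plus strand. The 2 strands of mt-Co1, a catalytic subunit of cytochrome c oxidase, had the opposite order, with between 365 and 417 on the minus strand and between 4643 and 7210 on the plus strand. In the libraries labelled HF, the medians of the 2 strands of mt-Co1 were about equal, with the minus strand at 1.1 and 1.02 times the plus strand. Only 37 and 11 minus-strand cytosines were listed there, against 326 and 322 on the plus strand. In the polysome libraries, plus-strand cytosines of mt-Nd4 were not listed at this coverage in any library, and those of mt-Nd5 in LF replicate 2 alone. Over the listed cytosines of mt-Co1, the minus-strand median was between 1.63 and 3.48 times the plus-strand median in 5 polysome libraries. It was 0.231 times in HF replicate 2. Between 23 and 95 minus-strand cytosines were listed in the 5, against between 283 and 321 on the plus strand. Low levels are listed less often at low coverage, so these medians need not give the coverage of the whole strand.

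To compare the recovery of minus-strand RNA in polysomes and in total mRNA, its median coverage was set against that of 67405 nuclear cytosines listed in all 12 libraries. For mt-Nd6 the ratio was 1.36 and 1.41 in total LF and 1.06 and 1.24 in total MF, while the libraries labelled HF had 0.412 and 0.407. Polysome LF had 0.392 and 0.393, polysome MF 0.463 and 0.581, and polysome HF 0.431 and 0.239. The total LF and MF libraries were thus all higher than the polysome libraries, while the libraries labelled HF lay within the polysome range.

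On the log2 scale, polysome mt-Nd6 coverage relative to nuclear cytosines was 1.11 lower than in total mRNA (−1.11, exact permutation test, p = 0.0346, 6 against 6 libraries). Without the libraries labelled HF the difference was −1.65 (exact permutation test, p = 0.00476, the smallest p that this design allows). For the antisense remainder, the ratio to nuclear cytosines was between 0.988 and 1.02 in total LF and MF, 0.598 and 0.647 for the libraries labelled HF, and between 0.264 and 0.51 in polysome mRNA. Here no polysome library overlapped a total library. The log2 difference was −1.02 with all libraries (exact permutation test, p = 0.00216) and −1.25 without the libraries labelled HF (exact permutation test, p = 0.00476). These comparisons to nuclear cytosines were added after the values were seen, and after Benjamini-Hochberg adjustment over 6 added coverage tests p was 0.0416 for mt-Nd6 with all libraries and 0.00952 for the other 3 (exact permutation tests). In bulk samples, fewer cells of a type and less RNA per cell cannot be told apart. The study took polysome RNA from the supernatant of centrifuged hypotonic lysates. How much mitochondrial RNA that step kept was not tested.

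Relative to the plus strand, the direction was the opposite. The reference here was 135 plus-strand cytosines of protein genes listed in all 12 libraries, 96 of mt-Co1 and 39 of mt-Cytb, the cytochrome b of complex III. Their median coverage was between 10445 and 15509 in total LF and MF, 5399 and 4399 for the libraries labelled HF, and between 128 and 385 in polysome mRNA. The ratio of mt-Nd6 to these cytosines was between 0.392 and 0.846 in total mRNA and between 6.55 and 14.5 in polysome mRNA. For the antisense remainder it was between 0.474 and 0.646 in total mRNA and between 6.26 and 18.4 in polysome mRNA. The log2 difference was 3.87 for mt-Nd6 and 3.95 for the antisense remainder, each without overlap (exact permutation test, p = 0.00216, the smallest p possible). With a minimum coverage of 50 or 100 in place of 20, fewer shallow plus-strand cytosines entered the reference, and the log2 differences were 2.31 and 2.22 for mt-Nd6 and 2.39 and 2.30 for the antisense remainder. Plus-strand coverage thus fell much further in the polysome libraries than minus-strand coverage did.

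**Figure D2:**
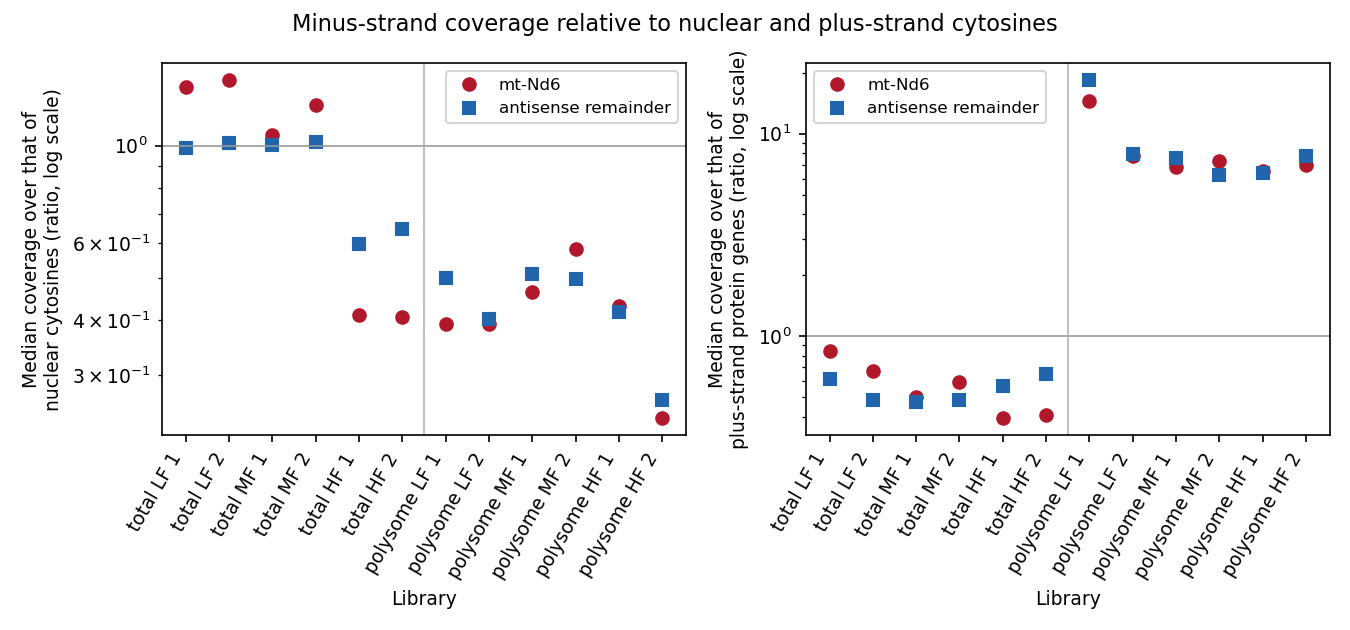
Median coverage of the 19 mt-Nd6 and the 93 antisense cytosines listed in all libraries, divided by that of nuclear cytosines (left) and of plus-strand protein-gene cytosines (right), by library on log scales. Polysome libraries lie between 0.239 and 0.581 on the left and between 6.26 and 18.4 on the right.

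The coverage of mt-Nd6 relative to the antisense remainder was between 1.06 and 1.39 in total LF and MF and between 0.786 and 1.17 in polysome mRNA. The difference between all total and all polysome libraries was −0.08 on the log2 scale (exact permutation test, p = 0.706). Without the libraries labelled HF, where the ratio was 0.69 and 0.63, it was −0.39 (exact permutation test, p = 0.019). After the same adjustment over 6 tests, p was 0.706 and 0.0286 (exact permutation tests).

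Methylation levels on the minus strand were low. The mean level of the 19 mt-Nd6 cytosines was 0.34% and 0.378% in total LF and 0.453% and 0.264% in total MF, while the libraries labelled HF had 0.355% and 0.597%. Polysome LF had 0.328% and 0.242%, polysome MF 0.302% and 0.198%, and polysome HF 0.195% and 0.592%. The fractions overlapped, and polysome HF replicate 2 was far above the other 5 polysome libraries.

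The mean level of the 93 antisense cytosines was 0.644% and 0.434% in total LF and 0.595% and 0.39% in total MF, while the libraries labelled HF had 0.639% and 0.781%. Polysome LF had 0.207% and 0.214%, polysome MF 0.165% and 0.227%, and polysome HF 0.192% and 0.517%. Each polysome library other than HF replicate 2 was below each total library.

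For reference, the nuclear cytosines listed in all libraries had a mean level between 0.197% and 0.328%. mt-Nd6 was above that of its own library in 9 of 12 libraries and the antisense remainder in 7 of 12, and neither difference passed the exact sign-flip permutation test (0.0862 percentage points, p = 0.0894, and 0.15 percentage points, p = 0.0581). The plus-strand protein-gene cytosines had a higher mean level, between 0.595% and 0.937% in total LF and MF, 3.58% and 3.15% for the libraries labelled HF, and between 1.51% and 6.49% in polysome mRNA. The plus-strand median was between 0.316% and 0.477% in total LF and MF, against between 0.27% and 0.393% for mt-Nd6 and between 0.336% and 0.507% for the antisense remainder, and it was above both minus-strand medians in 3 of these 4 libraries. In total MF replicate 1 the plus-strand median, 0.316%, was below both. In polysome mRNA a single C read at the median plus-strand coverage is a level between 0.26% and 0.781%, while the plus-strand medians were between 0.557% and 5.15%. The part of the listing rule in these levels was not tested, and no test of the plus strand is given. The tests against reference cytosines were added after the values were seen, 4 in all. After Benjamini-Hochberg adjustment over the 4, p was 0.0894 for mt-Nd6 and 0.0775 for the antisense remainder against the nuclear cytosines (exact permutation tests).

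**Figure D3:**
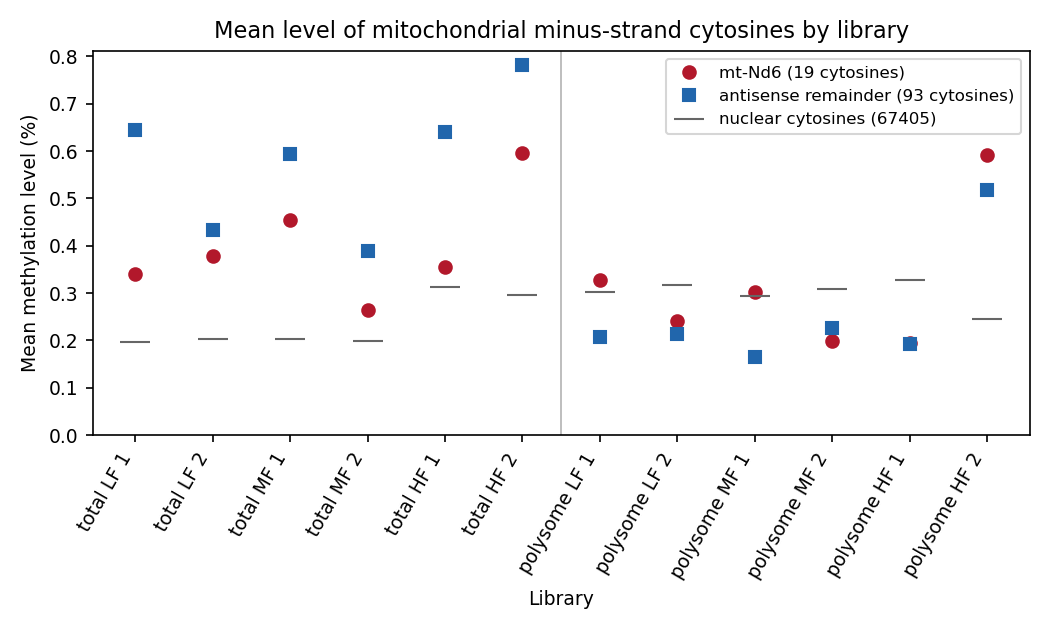
Mean methylation level in percent by library for mt-Nd6 (circles), the antisense remainder (squares) and nuclear cytosines (dashes), over cytosines listed in all 12 libraries. mt-Nd6 lies below the remainder in the 6 total libraries and above it in 5 of the 6 polysome libraries.

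Within a library, mt-Nd6 was lower than the antisense remainder in 7 of 12 libraries. The mean difference was −0.0636 percentage points (exact sign-flip permutation test, p = 0.165). By this mean, mt-Nd6 was lower in 6 of 6 total libraries, with differences between −0.304 and −0.0567 percentage points, and higher in 5 of 6 polysome libraries, with differences between 0.00267 and 0.137. The exception was polysome MF replicate 2, in which the difference was −0.0294. Without 3 antisense cytosines of the run opposite mt-Nd5 described below, the differences of the libraries labelled HF were 0.0672 and 0.27, so that among the total libraries mt-Nd6 was lower in the 4 of LF and MF. With medians in place of means, the mean difference over the total libraries was −0.00859, which joins 2 directions. The mt-Nd6 median was below the antisense median in each total LF and MF library. It was above it in the libraries labelled HF, at 0.351% and 0.444% against 0.213% and 0.2%. By the mean, the difference was −0.183 ± 0.0957 percentage points in total mRNA and 0.0556 ± 0.0663 in polysome mRNA (SD, n = 6 each). These differed by 0.238 percentage points (exact permutation test, p = 0.00216, 6 against 6 libraries).

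Of the 2 groups, the antisense remainder passed the test between fractions. Its mean level was 0.581% ± 0.145 in total mRNA and 0.254% ± 0.131 in polysome mRNA (SD, n = 6 each), a difference of −0.327 percentage points (exact permutation test, p = 0.00649). For mt-Nd6 the values were 0.398% ± 0.115 and 0.309% ± 0.149 (SD, n = 6 each), a difference of −0.0884 percentage points that did not pass the test (exact permutation test, p = 0.275). Without polysome HF replicate 2, the mt-Nd6 difference was −0.145 and passed (exact permutation test, p = 0.026), and without the libraries labelled HF as well it was −0.106 and did not (exact permutation test, p = 0.0635). With same-numbered libraries paired, the −0.0884 passed (exact sign-flip permutation test, p = 0.0312). Whether the numbers pair the samples is not known. The nuclear cytosines moved the other way by the mean, from 0.235% ± 0.0541 in total to 0.299% ± 0.0286 in polysome mRNA (SD, n = 6 each). The fractions overlapped in this measure. Total LF and MF had between 0.197% and 0.204%. The libraries labelled HF had 0.313% and 0.297%, within the polysome range of 0.246% to 0.328%. After Benjamini-Hochberg adjustment over the 4 level comparisons, p was 0.013 for the antisense remainder, 0.00866 for the difference between the groups and 0.275 for mt-Nd6 (exact permutation tests). By cytosine, 80 of 93 antisense and 15 of 19 mt-Nd6 cytosines had a higher mean level in total than in polysome mRNA. Neighbouring cytosines share reads, and no such count is given for the nuclear cytosines, so these counts are a description alone.

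Leaving out the libraries labelled HF kept the difference of the antisense remainder (−0.262 percentage points, exact permutation test, p = 0.0286) and that between the 2 groups of cytosines (0.213 percentage points, p = 0.00476 by the same exact test). It also left the mt-Nd6 difference short of the threshold (−0.0493, exact permutation test, p = 0.571). Both results rested in part on the 3 cytosines of the run. Without them, the antisense difference was −0.177 (exact permutation test, p = 0.0563) and the difference between the groups 0.0886 (exact permutation test, p = 0.303). With neither the run nor the libraries labelled HF, they were −0.237 (exact permutation test, p = 0.0333) and 0.188 (exact permutation test, p = 0.00952). When the median over cytosines replaced the mean, neither passed, with −0.122 for the antisense remainder (exact permutation test, p = 0.115) and 0.0777 for the difference between the groups (exact permutation test, p = 0.301). Both median values include the libraries labelled HF, and medians without these libraries were not tested. Over the cytosines listed in each library by itself, the antisense difference was 0.0268 (exact permutation test, p = 0.95) and that between the groups −0.13 (exact permutation test, p = 0.872), both in the other direction. These sets hold different cytosines in each library.

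The antisense remainder was also described by the gene opposite. Opposite mt-Nd4, the mean level of 16 cytosines was 1.35% and 0.626% in total LF and 0.932% and 0.689% in total MF, while the libraries labelled HF had 0.189% and 0.106%. Polysome LF had 0.221% and 0.178%, polysome MF 0.177% and 0.141%, and polysome HF 0.167% and 0.651%. The 4 total LF and MF libraries were thus higher than the libraries labelled HF and than 5 polysome libraries, while polysome HF replicate 2 was as high as total LF replicate 2. Opposite mt-Nd5, the mean of 77 cytosines was between 0.328% and 0.525% in total LF and MF, 0.733% and 0.922% for the libraries labelled HF, and between 0.162% and 0.489% in polysome mRNA. These 77 include the 3 run cytosines. The medians of the libraries labelled HF, 0.215% and 0.236%, were below those of total LF and MF, between 0.31% and 0.434%, as opposite mt-Nd4.

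The highest cytosines of mt-Nd6 by mean level were at positions 13598, 13607, 13562, 13560 and 13847. The first 4 lie within 55 bases of the 3′ end of the gene. The rank is by the mean over all 12 libraries. At 13562, the library labelled HF replicate 2 and polysome HF replicate 2 had 1.19% and 1.3%. The other libraries had between 0.0756% and 0.571% there. In each total LF and MF library, the highest of the common mt-Nd6 cytosines lay 91 or 94 bases from the 3′ end. The level at 13598 was 0.449% and 0.537% in total LF and 0.589% and 0.306% in total MF, while the libraries labelled HF had 0.664% and 1.53%. Polysome LF had 0.325% and 0.142%, polysome MF 0.198% and 0.143%, and polysome HF 0.255% and 1.07%. The 1.53% of the library labelled HF replicate 2 rested on 20 C reads of 1309 (95% Wilson interval 0.991% to 2.35%), and the 1.07% on 23 of 2152 (0.714% to 1.6%). The counting intervals of these 2 libraries lay above that of each other polysome library at this position. Intervals cover counting error only, since reads from PCR are not independent molecules.

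**Figure D4:**
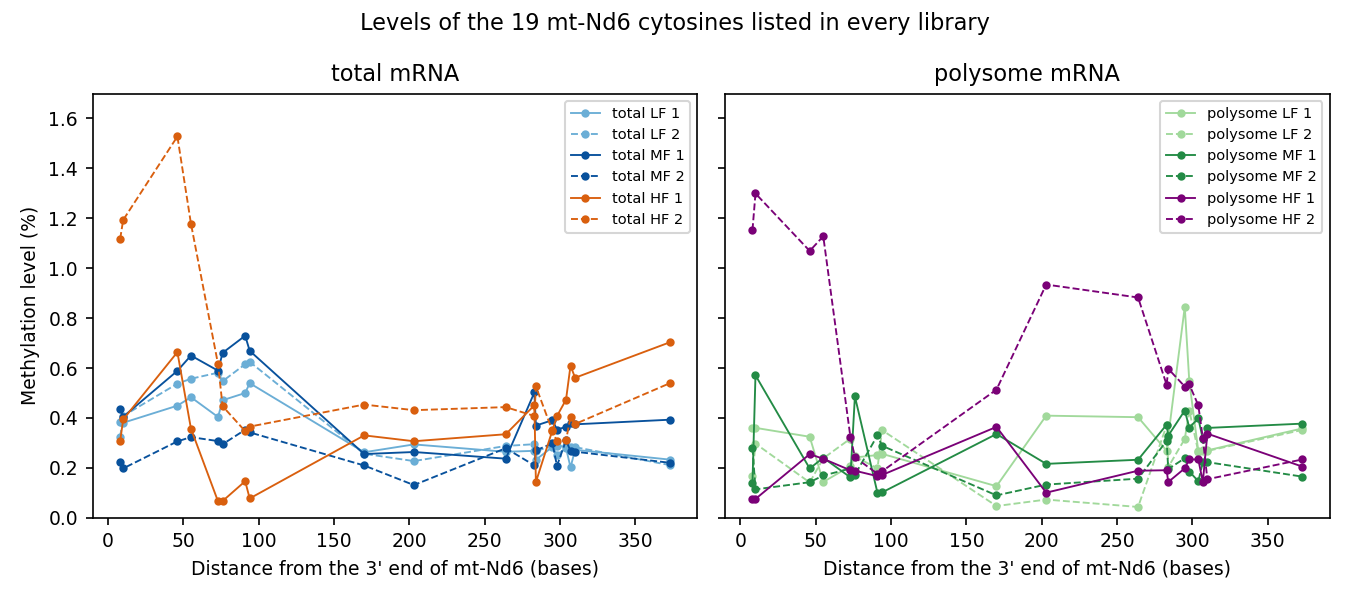
Methylation level in percent of the 19 mt-Nd6 cytosines listed in all libraries against the distance from the 3′ end of the gene in bases, for total (left) and polysome (right) libraries. The library labelled HF replicate 2 and polysome HF replicate 2 rise above 1% within 60 bases of the 3′ end.

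The 3′ end was not higher in all libraries. The 8 cytosines of the last 100 bases had a mean level of 0.452% and 0.525% in total LF and 0.591% and 0.293% in total MF, against 0.259%, 0.271%, 0.353% and 0.243% for the 11 others. In polysome LF and MF, the last 100 bases had between 0.212% and 0.268%, and the others had between 0.188% and 0.372%. The HF replicates went opposite ways. The last 100 bases had 0.26% against 0.425% for the others in the library labelled HF replicate 1, and 0.849% against 0.413% in replicate 2. In polysome HF they had 0.17% against 0.213% in replicate 1 and 0.697% against 0.516% in replicate 2. At 13847, inside the gene, levels were between 0.284% and 0.391% in the 6 total libraries. They were between 0.198% and 0.846% in the polysome libraries, the highest being LF replicate 1.

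How many mt-Nd6 cytosines differed from each other beyond counting error depended on the library. The 95% Wilson interval of a cytosine lay wholly above or below the pooled level of the gene for between 3 and 11 of 19 cytosines in the total LF and MF libraries, where the median number of C reads was between 24 and 27. In the polysome libraries other than HF replicate 2 it did so for at most 2 of 19, with a median of 5 to 8 C reads. Across the 19 cytosines, the levels of the 2 replicates had a Pearson correlation of 0.936 in total LF and 0.673 in total MF. It was 0.225 for the libraries labelled HF and 0.217, −0.424 and −0.364 in polysome LF, MF and HF. The cytosines share reads and depth, so these correlations are a description.

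For the antisense remainder, the same correlation over 93 cytosines was 0.773 in total LF, 0.891 in total MF and 0.996 in the libraries labelled HF, against −0.269, 0.152 and 0.297 in polysome LF, MF and HF. In the libraries labelled HF, the run cytosines were at levels of up to 15.5% and Spearman's rho was 0.718. The part of the run cytosines in the 0.996 was not tested. The median number of C reads per antisense cytosine was between 36 and 51 in total LF and MF and between 3 and 6 in polysome mRNA other than HF replicate 2, and its part in these correlations was not tested. The 5 highest antisense cytosines by mean level over all 12 libraries were at positions 11938, 11939, 11988, 12169 and 12871, all opposite mt-Nd5. The first 3 are the run cytosines. The level at 12169 was 3.12% and 4.8% for the libraries labelled HF and between 0.163% and 0.835% in the others, so this rank rests on the libraries labelled HF. The level at 12871 was 0.85% and 0.706% in total LF and 1.4% and 0.703% in total MF, while the libraries labelled HF had 0.457% and 0.214%. In polysome mRNA it was between 0.115% and 0.579% in 5 libraries and 2.29% in HF replicate 2.

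Few minus-strand cytosines reached the level at which the study starts to consider a site. The standard filter kept positions with 20 or more reads, 6 or more C reads and a level of 10% or higher. The study applied it after removing reads with several unconverted cytosines. That step was not repeated here, so the counts below are not those the study would reach. No mt-Nd6 cytosine passed it in any library, the highest level being 2.38% in polysome MF replicate 2. The median mt-Nd6 level there was 0.21%, and the highest level in any other library was 1.71%, in polysome HF replicate 2. In the antisense remainder, no cytosine passed in 9 libraries, 20 and 22 passed for the libraries labelled HF, and 28 passed in polysome HF replicate 2. None passed in both the libraries labelled HF and polysome HF replicate 2. Of the 50 positions that passed in any library, none had the cytosine followed by NGGG (CNGGG, a G-rich context like that of NSUN2 sites) or stood first in CTCCA (the NSUN6 context). CNGGG occurs at 1.04% of minus-strand cytosines and CTCCA at 0.447%, searched on the minus strand alone, and the 2 motifs cannot overlap at the same cytosine.

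A run of 20 cytosines opposite mt-Nd5, from 11843 to 12125, held 19 of the positions that passed in both libraries labelled HF. The level at 11881 was 14.6% in replicate 1 (172 C reads of 1180, 95% Wilson interval 12.7% to 16.7%) and 19.1% in replicate 2 (221 of 1159, 16.9% to 21.4%). It was 2.34% and 2.19% in total LF and 2.09% and 1.44% in total MF. In the 5 polysome libraries that listed it, it was between 0.143% and 0.405%.

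Over the run, the libraries labelled HF had median levels of 11.7% and 15.1%, and the 4 other total libraries had between 0.887% and 1.67%. It was between 0.211% and 0.465% in the polysome libraries, which listed between 9 and 20 of its cytosines. The libraries labelled HF were high here by the choice of the run, which was defined by what passed the filter in them. Median coverage of the run was 1414.5 and 1438 for the libraries labelled HF, between 4517.5 and 5774 in the other total libraries and between 821 and 1358.5 in polysome mRNA. Within a library the levels of the run went from 9.26% to 14.6% in the library labelled HF replicate 1 and from 11% to 19.1% in replicate 2. In total MF replicate 2 they went from 0.609% to 1.44%. Neighbouring cytosines share reads. In the total LF and MF libraries, the 3 run cytosines listed everywhere had mean levels between 0.837% and 1.68%, against between 0.375% and 0.61% for the 90 other antisense cytosines.

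**Figure D5:**
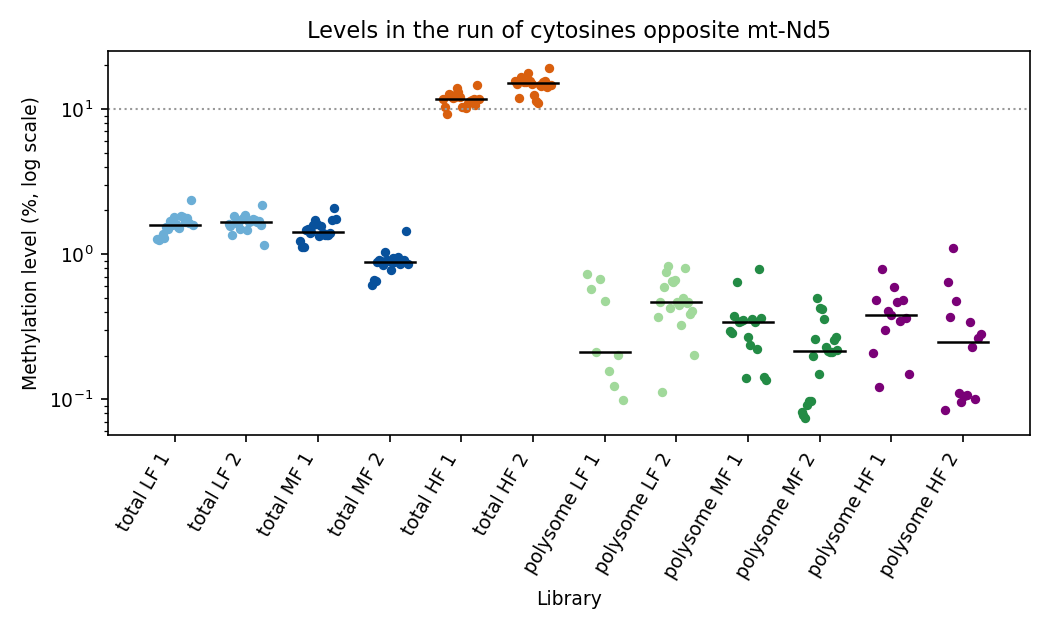
Methylation level in percent (log scale) of the cytosines of the run opposite mt-Nd5 in each library, 1 point per listed cytosine with the median as a line, and the 10% level dotted. The libraries labelled HF lie between 9.26% and 19.1%, the other total libraries between 0.609% and 2.34%, and the polysome libraries at 1.09% or less.

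Differences between conditions at single cytosines were tested by Fisher's exact test on the summed reads of both replicates, for each site in the genome that each of the 4 libraries listed with 20 or more reads and that met the standard filter in each replicate of at least 1 of the conditions compared. In the HF to MF comparison of total mRNA, 19 minus-strand cytosines met this rule, all in the run. They met it through the libraries labelled HF alone, at levels between 10.2% and 19.1%, and MF had between 0.609% and 2.09%, so the rule fixed the direction and the outcome of the test, and the call adds nothing to these values. All 19 were called at an adjusted p of 0.05, as were 94.3% of the 1138 sites tested in the genome, 82.9% as higher. The pooled difference was between 9.46 and 15 percentage points, largest at 11881, 12018 and 12072. The levels at 12018 were 13.9% and 17.7% against 1.59% and 1.04%, and those at 12072 were 12.7% and 16.6% against 1.46% and 0.883%. limma on the log odds called the 19 as well, with 90.9% called in the genome. Replicates did not overlap between the groups at 19 of 19 cytosines, as at 96.1% of the sites tested.

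In polysome against total mRNA at HF, 11 minus-strand cytosines met the rule, listing in all 4 libraries included, all in the run and again through the libraries labelled HF alone. Their levels were between 10.2% and 19.1% there and between 0.0951% and 0.784% in polysome HF, so that the lower polysome level was fixed by the rule. All 11 were called by Fisher's exact test, where 65.3% of 649 sites were called and 31.9% were called as lower. The pooled differences were between −16.5 and −10.4 percentage points. The 3 largest were at 11881, 12058 and 11938. The levels at 12058 were 0.479% and 0.641% in polysome mRNA against 12.5% and 15.9%, and those at 11938 were 0.343% and 0.228% against 11.7% and 15.5%. Replicates did not overlap at 11 of 11, as at 71.3% of the sites tested. limma called the 11 as well, with 54.4% called in the genome. Both comparisons with called cytosines used the libraries labelled HF, and they share those libraries.

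No minus-strand cytosine could be tested in the other 5 comparisons, because none passed the standard filter in both replicates of a condition. In the genome, Fisher's exact test called 0.76% of 1842 sites for LF and MF in total mRNA, 9.68% of 1074 for LF and MF in polysome mRNA and 9.1% of 703 for HF and MF in polysome mRNA. It called 65% of 480 for polysome and total mRNA at LF and 53.6% of 403 at MF.

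With 2 libraries per condition, no difference in mean level between folate concentrations passed a test. In total mRNA, LF and MF had the same mt-Nd6 mean, 0.359% in each, and antisense means of 0.539% and 0.492%. In polysome mRNA the mt-Nd6 means were 0.285% in LF and 0.25% in MF, and the antisense means were 0.211% and 0.196%. The libraries labelled HF were 0.117 percentage points above MF for mt-Nd6 and 0.218 for the antisense remainder, which was −0.215 with medians and −0.024 with pooled reads in place of the mean. The mt-Nd6 difference was −0.00335 without the library labelled HF replicate 2. Only for the difference of 0.218 did the 2 pairs of libraries not overlap. Without the 3 run cytosines, which were chosen for their level in the libraries labelled HF, the order turned. The antisense means were then 0.288% and 0.327% for the libraries labelled HF and 0.569% and 0.375% for MF. Polysome HF was 0.144 and 0.158 percentage points above MF, and these differences were −0.0551 and −0.00405 without HF replicate 2. With 2 libraries against 2, the exact permutation test allows no p below 0.333, which was reached for the antisense remainder in the libraries labelled HF alone, and all 8 adjusted values were 1.

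A single cytosine opposite mt-Nd1, a core membrane subunit of complex I, was high in both libraries labelled HF. Position 3336 had a level of 58.2% (57 C reads of 98, 95% Wilson interval 48.3% to 67.4%) and 52.6% (40 of 76, 41.6% to 63.5%). It was listed in 3 polysome libraries, LF replicate 2, MF replicate 1 and HF replicate 2, at 0.351%, 0.397% and 1.07% with coverages of 285, 252 and 281. It was not listed in total LF or MF, where a position without a C read does not appear. It was not tested, since it was not listed in 4 libraries of a comparison.

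In polysome HF replicate 2, 25 of the 28 passing cytosines formed a run of 134 bases opposite mt-Co1, from 6081 to 6214, which includes each minus-strand cytosine in that span. Their levels were between 10.5% and 68.3% with a median of 51.9%, at a median coverage of 54. C reads were between 25 and 28 at each of them, while coverage was between 41 and 256. The spread of levels thus follows coverage, and neighbouring cytosines share reads, so these are not separate measurements. The highest was at 6192, with 28 C reads of 41 (95% Wilson interval 53% to 80.4%). In the other libraries, the run's cytosines were listed at levels of at most 2.3% in total mRNA and at most 10% in polysome mRNA, and polysome MF listed none of them at this coverage. The other 3 were at 6631 (19.6%), also opposite mt-Co1, and at 10821 and 10827 (20.4% and 22.7%), opposite mt-Nd4. The library labelled HF replicate 2 listed 1 of this pair at 45.5%, with a coverage of 11. The other replicate of this condition listed 1 cytosine of the run, at 7.14% with a coverage of 28. These values stand on 1 library.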

How the data were processed

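RNA BS-seq reads of 12 libraries were processed by the authors with fastp, aligned uniquely to mm10 with meRanGh, called with meRanCall and annotated with meRanAnnotate, and mm10 is also the build in the submitters' processing notes. The deposited lists hold, per cytosine covered by 10 or more reads, 1 or more of them C, the read counts (coverage, C reads, variant reads) and the methylation rate as a fraction from 0 to 1. They precede the authors' filters on unconverted reads, signal to noise, FDR and RNA structure, which were not repeated. A position without a C read is absent, so low levels are missing more often at low coverage.

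Rows with a variant base were left out (173 minus-strand mitochondrial positions in at least 1 library, 29 of them in mt-Nd6). The level was C reads over coverage minus variant reads, with a coverage of at least 20. Mean levels were compared over cytosines listed in all 12 libraries, with exact two-sided permutation tests over libraries, or sign flips within libraries. Single cytosines were tested across the genome at an adjusted p of 0.05 with Fisher's exact test on pooled reads and with limma 3.58.1 (R 4.3.3) on log odds with 0.5 added to the counts, each with Benjamini-Hochberg adjustment. Other values were computed with Python 3.11.15, numpy 2.4.6, pandas 2.3.3 and scipy 1.17.1. Fisher's exact test and limma were checked on simulated counts. These had no spread between replicates beyond counting error, so the check does not cover such spread. Intervals are 95% Wilson intervals.

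The members, lists and named sites were chosen with earlier results of these data known. Named by rule were the 5 cytosines with the highest mean level in mt-Nd6 and in the rest of the strand (no tRNA cytosine was listed in all libraries) and the 3 called cytosines with the largest difference per comparison. Positions 3336, 6192, 6631, 10821 and 10827 were chosen after their values were seen. The result of 1 marker gene is not reported here.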

Additional observations from a re-analysis of the deposited data

Results flagged for a closer look

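14 sets of values, each 1 measure in either the 6 polysome or the 6 total libraries, were examined for 1 library far from the others. Of these, 5 stood out, where chance gives about 1 in 20 for independent sets. The measures share values, so the 5 are not independent. Polysome HF replicate 2 had a mean mt-Nd6 level of 0.592%, with the other 5 polysome libraries between 0.195% and 0.328%. Its mean level in the antisense remainder was 0.517%, with the others between 0.165% and 0.227%. Its antisense coverage relative to nuclear cytosines was −1.92 on the log2 scale, with the others between −1.31 and −0.97.

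Polysome LF replicate 1 stood apart in coverage relative to plus-strand protein genes. The log2 ratio was 3.86 for mt-Nd6, with the others between 2.71 and 2.95, and 4.2 for the antisense remainder, with the others between 2.65 and 2.99. Both ratios share the plus-strand median coverage, which was 128 in this library and between 286 and 385 in the other polysome libraries.

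The difference in mean level between mt-Nd6 and the antisense remainder itself differed between polysome and total mRNA, by 0.238 percentage points (exact permutation test, p = 0.00216, 6 against 6 libraries). It did not pass without the 3 run cytosines opposite mt-Nd5 (0.0886, exact permutation test, p = 0.303), with medians (0.0777, exact permutation test, p = 0.301) or over the cytosines listed in each library (−0.13, exact permutation test, p = 0.872).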

How the results depend on the processing

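Differences in mean level are in percentage points, and each p is from an exact permutation test. The sets without the run opposite mt-Nd5, the nuclear reference for coverage and the set without polysome HF replicate 2 and the libraries labelled HF were chosen after seeing the data. The value of mt-Nd6 minus the antisense remainder, −0.0636, turned to 0.0302 with medians (exact p = 0.418), 0.0335 with pooled reads (exact p = 0.198) and 0.0148 without the run (exact p = 0.718). It was −0.657 over the cytosines listed in each library (exact p = 0.000488). Polysome minus total mRNA in the antisense remainder, −0.327, was −0.122 with medians (exact p = 0.115), −0.177 without the run (exact p = 0.0563) and 0.0268 over the cytosines listed in each library (exact p = 0.95). For the difference between the groups, 0.238, these settings gave 0.0777 (exact p = 0.301), 0.0886 (exact p = 0.303) and −0.13 (exact p = 0.872), and pooled reads gave 0.0865 (exact p = 0.0779). Coverage in polysome over total mRNA turned to −1.11 (mt-Nd6) and −1.02 (antisense) on the log2 scale relative to nuclear cytosines. LF minus MF turned to −0.00729 with medians for the antisense remainder in total mRNA, to 0.0114 with pooled reads for mt-Nd6 in total mRNA and to −0.077 for mt-Nd6 in polysome mRNA over the cytosines listed in each library. HF minus MF for the antisense remainder in total mRNA turned to −0.215 with medians and −0.024 with pooled reads. At a minimum level of 20% in place of 10%, 0 minus-strand cytosines were called in either comparison with calls, since none was tested. The cause of the other changes was not tested.

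Leaving out 1 library at a time gave −0.0818 to −0.0417 for mt-Nd6 minus the remainder. Polysome minus total mRNA was −0.145 to −0.0487 for mt-Nd6, the first without polysome HF replicate 2 (exact p = 0.026), −0.379 to −0.287 for the remainder and 0.214 to 0.264 for the difference between the groups. In total mRNA, LF minus MF was −0.0947 to 0.0947 for mt-Nd6 and −0.0582 to 0.152 for the remainder, and HF minus MF was −0.00335 to 0.238 and 0.116 to 0.32. In polysome mRNA, LF minus MF was −0.0167 to 0.0869 and −0.0166 to 0.0459, and HF minus MF was −0.0551 to 0.343 and −0.00405 to 0.321. With 2 libraries per condition, these have no test.

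Same-numbered libraries did not deviate together over the 112 common cytosines (correlations between −0.366 and 0.222). Many of these cytosines had few C reads in polysome mRNA, so the correlations cannot settle whether the numbers pair the samples. With the replicate block, the mt-Nd6 difference between fractions of −0.0884 had an exact p = 0.0312, the smallest possible, and no other call changed.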
